A study of Homo sapiens with 30 samples.

Results

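The osteogenic RUNX and bone genes are 9 genes, namely RUNX1, RUNX2, RUNX3, SP7, ALPL, SPP1, IBSP, BGLAP and SPARC, and every array probe that carried one of these gene names was taken. That gave 9 of the 30484 gene names and 14 of the 41000 probes on the array. The series followed 5 established breast cancer lines of human origin, namely MDA-MB-361, ZR-75-30, HCC1954, SK-BR-3 and HCC1419, all known as lines with ERBB2 amplification. Each line received recombinant human BMP4 or its vehicle for 30 min, 1, 3, 6, 12 or 24 h, with 1 two-colour array for each line and time, 30 arrays in all. On every array the BMP4 RNA was labelled with Cy5 and the vehicle RNA with Cy3, from pools of 3 cultures per condition, and the dyes were never swapped. Each value is thus the log2 ratio of BMP4 over vehicle, with 5 arrays at each time point and 6 for each line, and the lines serve as the replicates of a time point.

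BMPs bind paired receptor kinases, which phosphorylate SMAD proteins that enter the nucleus with SMAD4. In cells that become osteoblasts this signal turns on RUNX2, the master transcription factor of bone formation, and then SP7 (osterix), which acts downstream of it. Their targets include ALPL, the alkaline phosphatase that frees phosphate for mineral, and the matrix proteins SPP1 (osteopontin), IBSP (bone sialoprotein), BGLAP (osteocalcin) and SPARC (osteonectin). RUNX1 and RUNX3 are the blood-forming and epithelial or neural relatives of RUNX2, and all RUNX proteins read the same short DNA motif. The comparisons ask whether BMP4 started parts of this programme in breast cancer cells.

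The RUNX motif is shown because it links the regulators with the bone genes they are known to control. RefSeq promoters (GRCh38.p14, 250 bases before to 50 bases after each start) were matched for 8 of the 9 genes, 12 promoters in all. SP7 had no entry. The letters AACCACA, searched on both strands, stood in 4 of these 12 promoters, 1 each of RUNX2, RUNX3, SPP1 and BGLAP, and in 4.27% of all 35116 promoters of 300 bases. The shorter core ACCACA, which AACCACA contains, was in the same number, 4 of 12, against 13.1% of all. For each gene 1 window of 60 bases is printed 5′ to 3′ on the gene's strand, with AACCACA in capitals.
RUNX2, chr6:45328217-45328276, plus strand: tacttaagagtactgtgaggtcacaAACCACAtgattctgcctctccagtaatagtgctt
RUNX3, chr1:24965108-24965167, minus strand: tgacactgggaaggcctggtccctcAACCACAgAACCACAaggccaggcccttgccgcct
SPP1, chr4:87975546-87975605, plus strand: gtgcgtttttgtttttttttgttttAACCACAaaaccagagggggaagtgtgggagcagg
BGLAP, chr1:156241995-156242054, plus strand: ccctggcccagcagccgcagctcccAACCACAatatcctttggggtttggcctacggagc
The RUNX3 window held the motif at 2 places, and the other windows at 1. The RUNX2 promoter held it at 3 places, 1 at −88 in the window shown and the others past the start, at 16 and 24. The GC form of the motif read by BMP SMADs, GGCGCC, was in 4 of the 12 promoters and in 19.2% of all, and its other form, GGAGCC, in 5 of 12 and 36%. The GC box GGGCGG was in 6 of 12 and 45%. These matches describe letters in a window and say nothing on binding in these cells.

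How far the ratios can be read depends on whether a probe was seen at all. A spot was taken as detected where the scanner software marked it well above its background. Of the regulators, the RUNX1 probes A_24_P96403 (hg18 chr21:35082261-35082320) and A_24_P917783 (chr21:35127650-35127708) were detected on 30 of 30 arrays. The RUNX2 probe A_32_P161762 (chr6:45626194-45626253) was detected on 17, and the other RUNX2 probes, A_24_P69267 (chr6:45622775-45622834) and A_32_P148058 (chr6:45404144-45404403), on 3 and 8. The RUNX3 probe A_23_P51231 (chr1:25098920-25098979) was detected on 18 arrays and the SP7 probe A_23_P317729 (chr12:52007310-52007369) on 0. RUNX1 was therefore seen on every array, RUNX2 and RUNX3 on some, and SP7 on none.

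Of the bone genes, the 2 BGLAP probes, A_23_P160638 (chr1:154479504-154479563) and A_24_P336551 (chr1:154479679-154479736), were detected on all 30 arrays. The ALPL probe A_24_P353619 (chr1:21775671-21776471) was detected on 26 and the other, A_23_P97046 (chr1:21767298-21769414), on 0. SPP1 (A_23_P7313, chr4:89122944-89123003, printed in 10 spots) was detected on 4, SPARC (A_23_P7642, chr5:151022378-151022437) on 4 and IBSP (A_23_P144549, chr4:88950905-88951561) on 2. In words, BGLAP and ALPL were the bone genes with usable signal, and the mineral-binding matrix genes were near background in most cultures. All coordinates are hg18, as the array files give them. Exon and untranslated region annotation was not used here. The 7 probes of 5 genes that are brighter, both of RUNX1, A_32_P161762 of RUNX2, RUNX3, A_24_P353619 of ALPL and both of BGLAP, were detected on more than 15 arrays and carry the comparisons that follow. Ratios of dimmer probes are drawn towards 0 by the background step and are given as values only.

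Between 56.2% and 70.8% of all probes were detected per array and dye. The scanner software gave slopes of observed on known log ratios of the spiked-in control RNAs of 0.525 to 0.877. Its own ratios thus understate the true fold changes. The ratios used here add a background offset, which draws dimmer probes further towards 0, and their slope was not measured. All 7 breast epithelial marker genes were detected on more than 15 arrays. Of 7 fibroblast and osteoblast matrix genes 2 were, and of 4 blood or endothelial genes 1 was. BMP4 had acted: ID1, ID2, ID3 and ID4, direct SMAD targets, rose by 0.94 to 1.33 on the log2 scale from 30 min to the mean of 3 to 24 h (limma adjusted p 3.49e-05 to 0.00164 over 5 probes). Arrays were scanned on 7 days. HCC1419 and MDA-MB-361 were each scanned on a day of their own, so for these lines day and line cannot be told apart. Only the seventh day held 2 lines, HCC1954 and ZR-75-30.

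No rise of RUNX2 passed the test against 0 at any time point with the reported processing. For probe A_32_P161762 the ratios at 24 h were 0.27 in MDA-MB-361, 0.19 in ZR-75-30, −0.32 in HCC1954, 0.0017 in SK-BR-3 and 0.01 in HCC1419, with a mean of 0.03. The lines thus lay on both sides of 0, and the probe was not detected in HCC1419 or SK-BR-3. The 6 time-point means of this probe ran from −0.03 to 0.07. The dimmer probe A_24_P69267 had ratios from −0.36 to 0.28 over 29 arrays, 1 spot having been marked as an outlier. The third probe, A_32_P148058, lay between −0.23 and 0.21 on all but 1 array. That array was HCC1419 at 24 h, with −2.80, a vehicle level of 13.08 and a BMP4 level of 10.28, whereas its vehicle level was 6.62 to 6.74 on the other 5 HCC1419 arrays. The other RUNX2 probes both gave 0.01 on that array. Over the arrays the ratio of A_32_P161762 had a Pearson r of 0.0034 with A_32_P148058 and of −0.479 with A_24_P69267.

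The ratios of RUNX1 and RUNX3 also lay near 0. RUNX1 probe A_24_P96403 ranged from −0.35 in ZR-75-30 at 12 h to 0.20 in MDA-MB-361 at 30 min, with a median of 0.0087 and 17 of 30 arrays above 0. Its 24 h ratios were 0.0031 in MDA-MB-361, −0.03 in ZR-75-30, −0.03 in HCC1954, 0.01 in SK-BR-3 and −0.17 in HCC1419. The 5 lines were closest together at that time, and on both sides of 0. The second RUNX1 probe, A_24_P917783, swung far more, from −1.86 in SK-BR-3 at 12 h to 0.98 in ZR-75-30 at 3 h. The 2 RUNX1 probes had a Pearson r of 0.278 over the 30 ratios. On those 2 arrays the first probe gave −0.21 and 0.16, on the same side of 0 but far smaller. RUNX3 ratios ran from −0.41 in MDA-MB-361 at 24 h to 0.30 in the same line at 30 min. In the other detected lines RUNX3 lay between −0.08 and 0.28 in HCC1419 and between −0.10 and 0.19 in HCC1954, and these ranges overlapped.

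SP7, the osteoblast factor downstream of RUNX2, was well above background in neither dye on any array. Its ratios, −0.14 to 0.18, are those of background and give no measure of its RNA.

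ALPL had its highest mean at the earliest time. At 30 min probe A_24_P353619 gave 0.14 in MDA-MB-361, 0.08 in ZR-75-30, 0.17 in HCC1954, 0.33 in SK-BR-3 and 0.03 in HCC1419, a mean of 0.15 ± 0.06 (SE, n = 5). All 5 lines were above 0, but the limma adjusted p was 0.638. By 24 h the values were 0.29, −0.08, −0.09, 0.05 and 0.02 in the same order of lines, again on both sides of 0. The other ALPL probe, never detected, had a mean of −0.01 at 30 min.

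BGLAP, the bone matrix protein osteocalcin, differed between its 2 probes. Probe A_23_P160638 at 24 h was −0.21 in MDA-MB-361, −0.66 in ZR-75-30, −0.26 in HCC1954, 0.0043 in SK-BR-3 and −0.10 in HCC1419, with a mean of −0.25 ± 0.09 (SE, n = 5; limma adjusted p = 0.199). Its lowest ratios were both in ZR-75-30, −0.78 at 12 h and −0.66 at 24 h, the other ZR-75-30 arrays lying between −0.05 and 0.23. Probe A_24_P336551 was −0.06 and −0.07 on these 2 arrays, with a mean of −0.0015 at 24 h. So the low values of 1 probe were not seen by the other, and over the 30 arrays their ratios had a Pearson r of 0.112. Probe A_24_P336551 was above 0 in all 5 lines at 1 h, at 0.04, 0.05, 0.13, 0.20 and 0.21 in that order of lines (mean 0.13 ± 0.06, SE, n = 5; limma adjusted p = 0.332), while the other probe had a mean of 0.0073 there. Transcripts that run from the neighbouring gene PMF1 into BGLAP are known, PMF1 was detected in every line at 10.24 to 11.12 (log2 vehicle level), and its part in the BGLAP signal was not tested.

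The matrix genes SPP1, IBSP and SPARC had ratios close to 0 on nearly all arrays. SPP1 lay between −0.03 and 0.05 on all arrays but HCC1954 at 6 h (0.28). IBSP lay between −0.20 and 0.15, and SPARC between −0.09 and 0.21. They were too dim for these values to bound a change.

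Tested against 0 with limma, none of the 14 probes was called at any time point, where 2.52% of all probes were called at 1 or more of the 6. From the earliest to the latest time, the calls over all probes made up 0.0805, 0.973, 0.349, 0.176, 0.463 and 1.58%. At an unadjusted p under 0.05 the member probes numbered 1, 1, 0, 0, 0 and 2 at these times: ALPL at 30 min, BGLAP at 1 h, and BGLAP and the RUNX2 probe A_32_P148058 at 24 h. That RUNX2 value, a mean of −0.59 ± 0.22 (SE, n = 5; adjusted p = 0.197), rested on the single HCC1419 array, the other 4 ratios lying between −0.20 and 0.10. Because the dyes were not swapped, a dye bias of a probe would stay in these ratios.

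Such a bias cancels in the change over time, and there too no member probe passed the test. An F test over the 6 times called 0 of 14 probes against 0.0902% of all, with 0 at an unadjusted p under 0.05. The late change, the mean of 3, 6, 12 and 24 h minus 30 min, was called for 0 of 14 against 0.0927% of all, again with 0 at an unadjusted p under 0.05 and a lowest adjusted p of 0.965 (limma).

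The late changes were small in every role. Among the regulators they were −0.04 for RUNX1 (A_24_P96403; 95% interval −0.17 to 0.09), −0.06 for RUNX2 (A_32_P161762; −0.20 to 0.07) and −0.04 for RUNX3 (−0.21 to 0.12). Among the bone genes they were −0.11 for ALPL (−0.24 to 0.01), −0.09 for BGLAP probe A_23_P160638 (−0.31 to 0.12) and 0.0012 for A_24_P336551 (−0.12 to 0.12). The intervals of all 7 brighter probes ended below a 2-fold rise on this compressed scale, the highest upper end being 0.46, or 1.37-fold, for the second RUNX1 probe. Those of RUNX2 and RUNX3 pool lines without detected signal, HCC1419 and SK-BR-3 for RUNX2, and SK-BR-3 and ZR-75-30 for RUNX3. Ratios there are drawn towards 0, so these 2 intervals do not bound a rise in the lines with signal. Over the 14 probes 2 late changes were above 0 and 12 below, with a median of −0.03. Of all probes 53.3% were above 0, with a median of 0.0054. Only 7 of the 14 are brighter probes and several share a gene, so this count of signs gives no measure of a shared fall. Within single lines the RUNX2 late change was 0.08 in MDA-MB-361, −0.10 in ZR-75-30, −0.39 in HCC1954, 0.11 in SK-BR-3 and −0.0047 in HCC1419. The drop in HCC1954 came from a 30 min ratio of 0.17 followed by values from −0.32 to −0.09. Whether lines differed in their late change was called for 0 of 14 probes against 0.00732% of all, with 0 at an unadjusted p under 0.05 (limma).

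**Figure D1:**
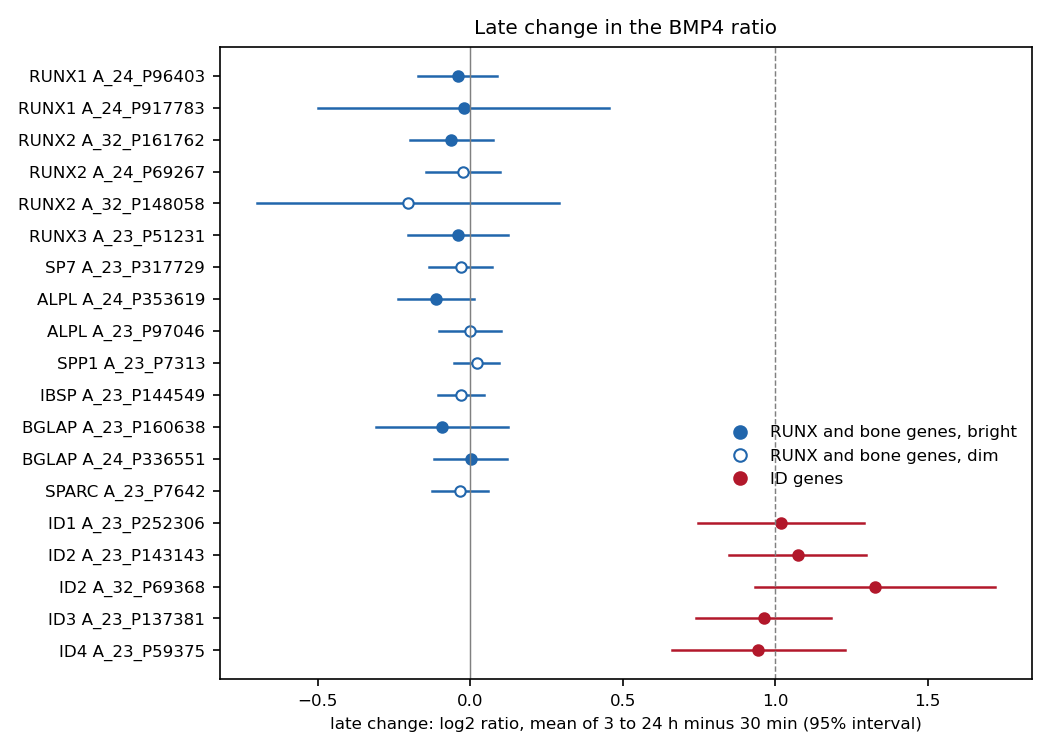
Late change of the log2 ratio (mean of 3, 6, 12 and 24 h minus 30 min) with its 95% interval for the 14 RUNX and bone gene probes beside the ID genes. The dashed line marks a 2-fold rise; the ID probes sit near it, at 0.94 to 1.33, while the intervals of the brighter RUNX and bone probes end at 0.46 or lower.

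Counted as single events of 2-fold or more, 2 of the 419 member values passed, against 0.5% of all values. Both were falls already given, the second RUNX1 probe in SK-BR-3 at 12 h and RUNX2 A_32_P148058 in HCC1419 at 24 h. Scaled as the submitters deposited them, without the background offset, 15 of 399 values passed against 3.05% of all, 4 of them up, and of the software's own ratios 17 of 419 against 2.85%. At 1.5-fold 9 of the 419 values passed against 2.76% of all. Of the 15 in the deposited ratios, 11 came from probes that were dim here, 4 each from the RUNX2 probes A_24_P69267 and A_32_P148058 and 3 from the ALPL probe A_23_P97046. The rest came from brighter probes. They were a rise and a fall of RUNX1 A_24_P917783, a rise of ALPL A_24_P353619 and a fall of BGLAP A_23_P160638. The shares of member values that passed lay near those of all probes. The authors list RUNX1 among the genes most often regulated after BMP4, with rises as well as falls. They assigned probes to genes by genomic position. In the deposited ratios the probes that carry the name RUNX1 gave 1 rise and 1 fall, both of A_24_P917783. The reason for this difference was not tested.

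With the reported processing the ratio differed between lines for 2 of the 14 probes, RUNX1 A_24_P96403 and RUNX2 A_32_P161762. Of all probes 22.2% were called, so the members were not rich in such differences. For RUNX2, the 6 ratios of ZR-75-30 ran from 0.01 over a median of 0.22 to 0.33, those of HCC1954 from −0.32 over −0.25 to 0.17, and those of MDA-MB-361 from −0.09 over 0.04 to 0.27. All 6 ZR-75-30 arrays were above 0 and 5 of 6 HCC1954 arrays below it, and the ranges of these 2 lines overlapped only through HCC1954 at 30 min. The mean was 0.20 ± 0.11 (SD, n = 6) in ZR-75-30 and −0.17 ± 0.18 in HCC1954, a gap of 0.37. The limma F test over the 5 lines gave an adjusted p of 0.0152. It took in HCC1419 and SK-BR-3, where the probe was not detected. The pair of ZR-75-30 and HCC1954 was not tested on its own. Set against the other lines, HCC1954 stood at −0.24 and was not called (limma adjusted p = 0.216). On the day that held both lines, HCC1954 lay between −0.32 and −0.21 and ZR-75-30 between 0.15 and 0.28. The remaining lines had no RUNX2 signal above background with this probe, or little.

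For RUNX1, HCC1419 ran from −0.26 over −0.12 to −0.05, HCC1954 from −0.03 over 0.14 to 0.18, and MDA-MB-361 from 0.0031 over 0.11 to 0.20. SK-BR-3 ran from −0.24 over 0.0083 to 0.17, and ZR-75-30 from −0.35 over −0.10 to 0.16. All 6 HCC1419 arrays were below 0 and all 6 MDA-MB-361 arrays above it, without overlap, while SK-BR-3 and ZR-75-30 spanned both. The means of HCC1419 and MDA-MB-361 were −0.15 and 0.11 (adjusted p over the 5 lines = 0.0276), and as each was scanned on its own day, line and day cannot be told apart here. On the shared day the RUNX1 ratios of HCC1954 (−0.03 to 0.16) and ZR-75-30 (−0.35 to 0.16) overlapped.

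Set against the other 4 lines, 3 line and probe pairs were called. In ZR-75-30 the RUNX2 probe A_32_P161762 was higher by 0.22 ± 0.06 (SE; adjusted p = 0.0209) and A_24_P69267 lower by 0.19 ± 0.05 (adjusted p = 0.0262), where 9.87% of all probes were called. The latter probe was well above background in neither dye on any ZR-75-30 array, so its ratio there is that of background and gives no measure of RUNX2. In MDA-MB-361 the BGLAP probe A_24_P336551 was lower by 0.17 ± 0.05 (adjusted p = 0.0238), where 22.3% of all were called. In HCC1419 (2.23% of all), HCC1954 (0.039%) and SK-BR-3 (0.0341%) none of the 14 was called. The call of A_32_P161762 was lost on the software's own ratios (0.21), on the deposited ones (0.12), with 1 scale factor per array in place of loess (0.04) and with array weights (0.16). That of A_24_P69267 was lost with 1 factor (−0.09), with weights (−0.11) and without HCC1419 (−0.20) or MDA-MB-361 (−0.19), and that of BGLAP with 1 factor (−0.12) and without HCC1419 (−0.16). Both calls between lines, of RUNX1 and of RUNX2, were lost with the deposited scaling, at adjusted p of 0.126 and 0.353, on the software's ratios, at 0.111 and 0.162, and with 1 factor per array, at 0.228 and 0.957. They were lost as well without any 1 of 3 lines, at 0.0953, 0.0840 and 0.210 for RUNX1 without HCC1419, HCC1954 or MDA-MB-361, and at 0.0868, 0.0698 and 0.131 for RUNX2 without HCC1954, MDA-MB-361 or ZR-75-30. Of all probes 15.6, 19.1 and 0.0122% were called with the deposited ratios, the software's and 1 factor, beside 22.2% as reported. Without HCC1419, HCC1954, MDA-MB-361 or ZR-75-30 the share was 13.1, 19.2, 0.234 or 20.5%.

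**Figure D2:**
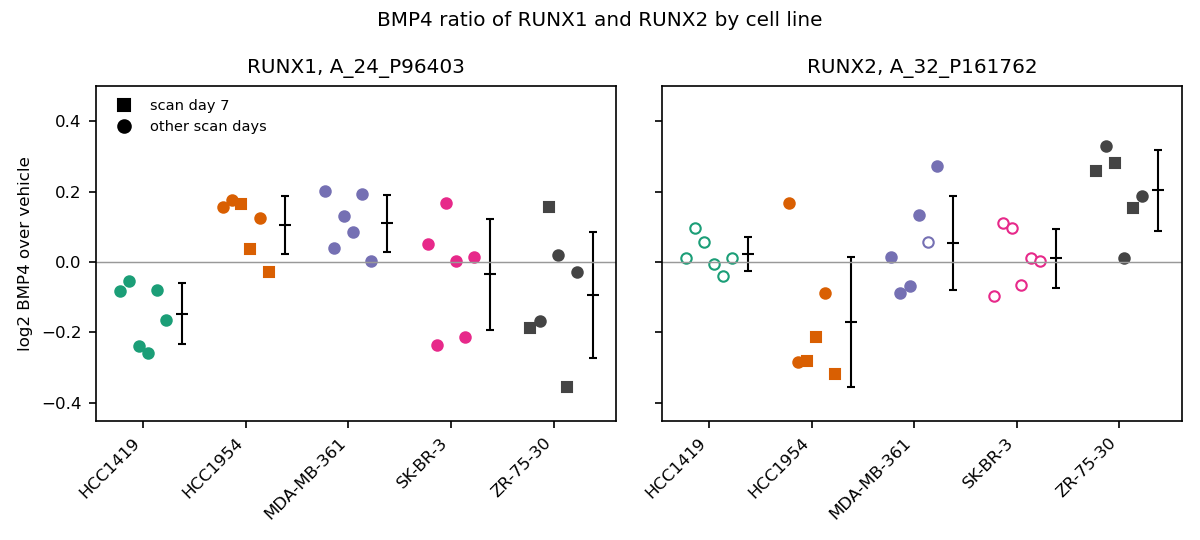
Log2 ratios of BMP4 over vehicle for the RUNX probes in each cell line, 1 point per time point, with the mean and SD of the 6 arrays; squares are arrays of the seventh scan day, and open points were not well above background. For RUNX2 all ZR-75-30 points lie above 0 and 5 of 6 HCC1954 points below it; for RUNX1 all HCC1419 points lie below 0.

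The lines differed far more in how much RUNX RNA they held without BMP4. Vehicle levels are log2 Cy3 intensities after scaling between arrays, and 9 of 14 member probes differed between lines where 73% of all probes did. In these bulk cultures fewer expressing cells and less RNA per cell cannot be told apart. RUNX2 (A_32_P161762) was highest in HCC1954, from 9.92 to 10.18 with a mean of 10.01, and in ZR-75-30, from 9.19 over a median of 9.66 to 10.18. The 2 lines overlapped, and both stood apart from MDA-MB-361 (6.73, 6.92 and 7.38, with 5 of 6 arrays detected) and from HCC1419 and SK-BR-3, in which the probe was never detected in the vehicle dye (adjusted p = 5.91e-19). A bound is given against such lines, the brighter mean over the lowest signal that counted as detected: RUNX2 in HCC1954 was at least 10.8-fold above HCC1419 and at least 10.3-fold above SK-BR-3. ZR-75-30 was at least 8.54-fold and at least 8.15-fold above the same lines.

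RUNX3 followed another order of lines. It was highest in HCC1954 (8.81, median 9.49, 9.65), then MDA-MB-361 (8.49, 8.75, 8.95) and HCC1419 (8.13, 8.43, 8.68), and was never detected in the vehicle dye of SK-BR-3 or ZR-75-30 (adjusted p = 1.20e-17). Neighbours among the 3 detected lines overlapped. HCC1954 was at least 6.49-fold above SK-BR-3 and at least 6.97-fold above ZR-75-30, and HCC1419, the lowest detected line, at least 3.31-fold and 3.56-fold. On the shared scan day RUNX3 was 9.38 to 9.497 in HCC1954 and 6.36 to 6.37 in ZR-75-30. With RUNX2 read from probe A_32_P161762, HCC1954 therefore held both RUNX2 and RUNX3, and ZR-75-30 RUNX2 without detected RUNX3. With the same probes HCC1419 held RUNX3 without detected RUNX2, MDA-MB-361 RUNX3 with low RUNX2, and SK-BR-3 neither at a detected level. The dimmer RUNX2 probe A_32_P148058 was detected in the vehicle dye on 4 of 6 SK-BR-3 arrays and 2 of 6 MDA-MB-361 arrays. It was also detected on 1 array each of HCC1419 (13.08 at 24 h) and HCC1954, and on 0 of ZR-75-30. Absence of RUNX2 RNA from SK-BR-3 or HCC1419 is therefore not shown. The other dimmer RUNX2 probe, A_24_P69267, was detected in the vehicle dye on 3 of 6 HCC1954 arrays and on 0 of the other lines. Its mean levels ran only from 6.48 in SK-BR-3 to 6.75 in HCC1954, with 6.73 in ZR-75-30. The RUNX2 differences between lines given above thus rest on A_32_P161762, and in ZR-75-30 RUNX2 was detected with that probe alone.

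RUNX1 was detected in every line. With probe A_24_P96403 HCC1954 was highest (10.17, median 10.85, 11.58), at a mean of 10.91, followed by ZR-75-30 at 9.57, HCC1419 at 9.38, SK-BR-3 at 9.04 and MDA-MB-361 at 8.96 (adjusted p = 5.33e-11). HCC1954 lay 2.53-fold above ZR-75-30 with no overlap of arrays, and every other pair of neighbours overlapped. Within HCC1954 the level moved with the scan day, from 10.17 to 10.71 on the fifth day and from 10.99 to 11.58 on the seventh. The second RUNX1 probe did not show this order (adjusted p = 0.0791), its SD over 6 arrays reaching 1.04 to 1.69 in HCC1954, SK-BR-3 and ZR-75-30.

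Of the bone genes, BGLAP was detected in all lines and both probes gave the same order. Probe A_23_P160638 had means of 8.27 in ZR-75-30, 8.17 for HCC1954, then 7.61 for HCC1419, 7.56 for MDA-MB-361 and 7.27 for SK-BR-3 (adjusted p = 2.40e-05), and A_24_P336551 had 8.04, 7.92, 7.55, 7.53 and 7.42 (adjusted p = 9.09e-06). Neighbours in this order overlapped, and the whole span was 1.996-fold and 1.53-fold. ALPL (A_24_P353619) spanned only 6.94 in ZR-75-30 to 7.49 in HCC1419, detected in the vehicle dye on 3 and 6 arrays, and its adjusted p of 0.0172 became 0.444 with scan day as a random block and 0.141 without HCC1419.

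SPP1 was detected only in HCC1954, on 4 of its 6 arrays (6.66, median 6.90, 8.17), which put it at least 1.37-fold to 1.47-fold above the other lines (adjusted p = 0.000289, and 0.817 without HCC1954). Its highest array, at 1 h, had 8.17 with vehicle and 8.16 with BMP4, so both dyes gave the same level. SPARC was detected on 2 of 6 vehicle samples of MDA-MB-361 (6.73, median 6.76, 7.16) and 1 of HCC1954 (adjusted p = 0.000206, and 0.0742 without MDA-MB-361). IBSP was detected on single arrays, SK-BR-3 at 6 h (8.14) and HCC1954 at 24 h (7.41), with an adjusted p of 0.449. SP7 was detected in no line (adjusted p = 0.730).

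**Figure D3:**
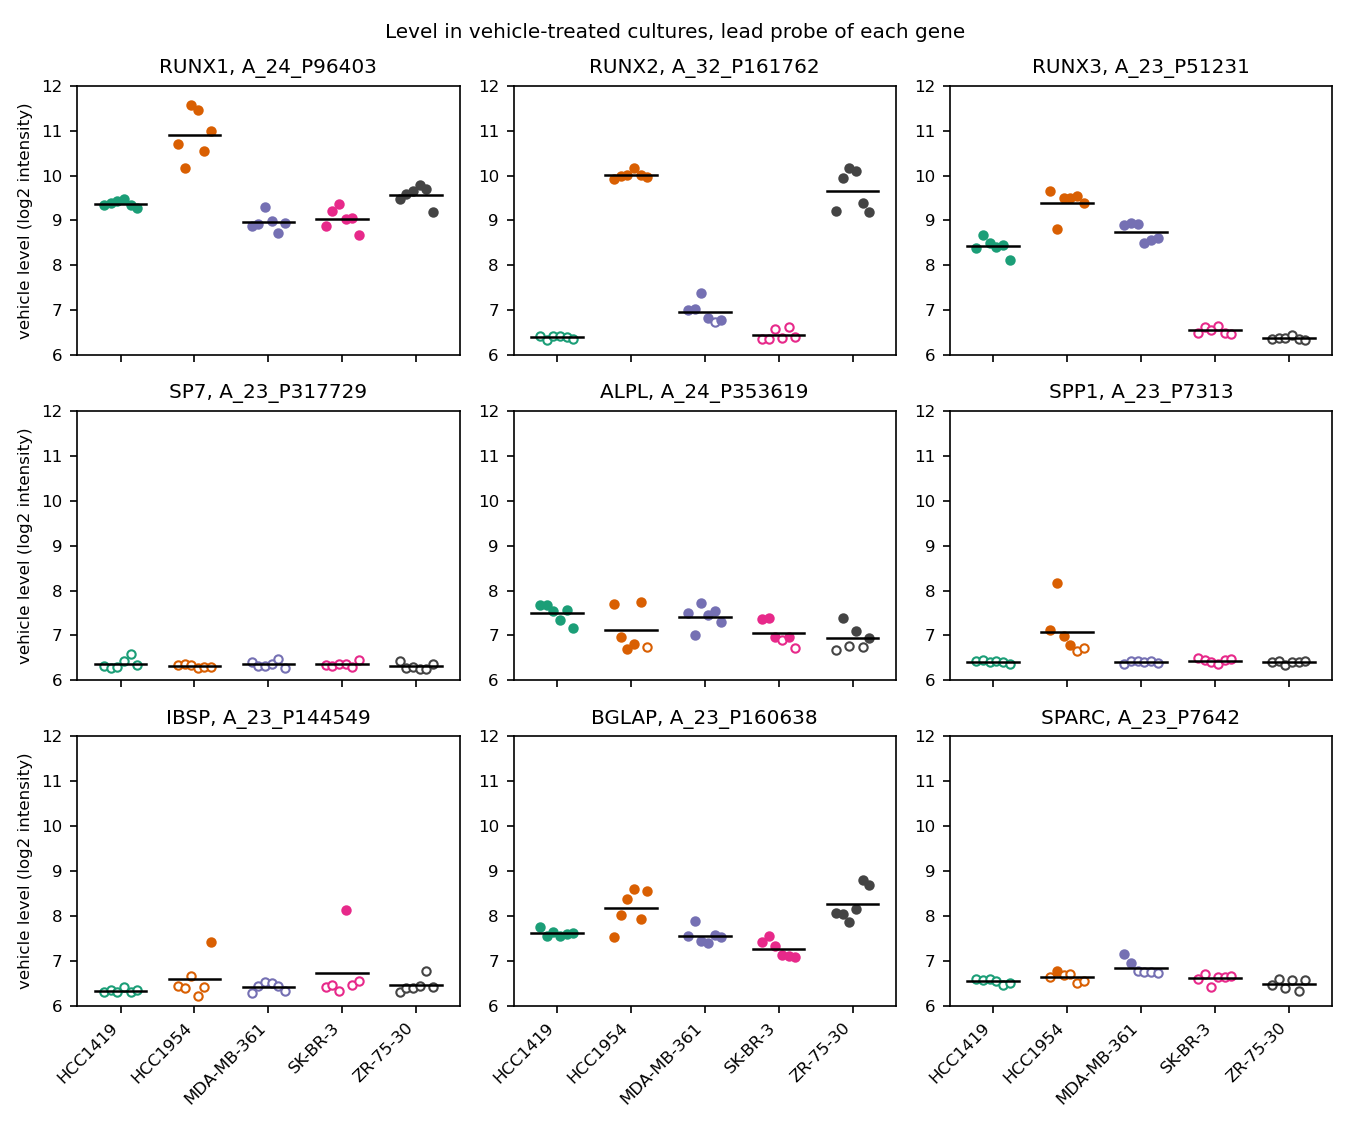
Log2 vehicle (Cy3) level of each gene's brightest probe in the 5 lines, 1 point per array, with the mean; open points were not well above background. RUNX2 is high in HCC1954 and ZR-75-30 and RUNX3 in HCC1954, MDA-MB-361 and HCC1419, while SP7 is at background throughout.

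Other genes of the bone programme were read from 4 gene lists. Of 21 osteogenic regulators with 38 probes, 1 had a called late change and it rose, DLX3, a homeobox factor of bone and skin, by 0.69 ± 0.12 (SE; adjusted p = 0.00942). This probe of DLX3 stood above 0 in 5 of 5 lines at 3 h (mean 0.63) and 24 h (0.76). The other DLX3 probe, detected on 29 arrays, had a late change of 0.0060 (adjusted p = 0.999) and a 24 h mean of 0.09, so the rise was seen by 1 of 2 probes. Against 0, 7 of the 38 probes were called at 1 or more times, or 18.4% beside 2.52% of all, and all of these rose. The list was drawn up with earlier results of these data known and holds known BMP targets. Of the 7 probes, 3 are of HES1. The shares therefore do not test for enrichment. The genes other than DLX3 are named after their values were seen. They were HEY1, a Notch and BMP target, at every time from 1 h (1.04) to 24 h (0.75), HES1, another such repressor, at 1 h with all 3 of its probes (0.57 to 0.84), MSX2, a homeobox BMP target, with 1 of its 2 probes at 12 h (0.48) and 24 h (0.56; 0.38 with the other, adjusted p = 0.0654), and HDAC4, a deacetylase known to restrain RUNX2, at 1 h with 1 of its 4 probes (0.49). The median late change of the list was −0.0039 beside 0.0054 over all probes.

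Of 22 bone matrix and mineral genes with 30 probes, 0 had a called late change. Against 0, ENPP1, which makes the mineral inhibitor pyrophosphate, was called at 24 h and was lower (−0.23; adjusted p = 0.0260), 1 of 30 probes or 3.33%, and it too is named after its value was seen. The other ENPP1 probe, detected on 24 arrays, had a 24 h mean of 0.07 (adjusted p = 0.678), on the other side of 0. The largest late changes among the brighter probes were those of SMOC1 (0.23) and SMOC2 (0.19). Of 16 signalling and osteoclast coupling genes with 24 probes, IGFBP5, a binding protein of insulin-like growth factors, was called against 0 with 1 of its 3 probes at 12 h (0.48) and 24 h (0.65), 1 of 24 or 4.17%, with a late change of 0.34 (adjusted p = 0.518). The other IGFBP5 probes had 24 h means of 0.35 (adjusted p = 0.116) and 0.20 (adjusted p = 0.576). DKK1, a WNT inhibitor, had a late change of 0.18. Of 9 cartilage genes with 12 probes 0 were called, MATN3 (−0.19) and ACAN (0.15) having the largest late changes.

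The probes whose 30 ratios were most like those of the member genes were found by Pearson r, as a description over arrays that share lines and scan days. They were ANXA5 (0.776), C20orf108 (0.77) and DKFZp667M2411 (0.768) for RUNX1, C18orf37 (0.718), NDUFAB1 (0.715) and C1D (0.714) for RUNX2, and MGC15634 (0.725), TMEM17 (0.676) and PRIMA1 (0.668) for RUNX3. For ALPL they were LRCH3 (0.784), DKFZp761B107 (0.732) and POU5F1 (0.678), and for BGLAP FAM100A (0.844), VAC14 (0.834) and SNX26 (0.834). None of these genes was on the 4 lists of bone genes.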

How the data were processed

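Per the labels, each array carried Cy5 cRNA of BMP4-treated cells and Cy3 cRNA of vehicle-treated cells, each from pooled triplicate cultures. The deposited scanner files (Agilent Feature Extraction 9.5.1.1 per the file headers, hg18) hold spot intensity values, flags and a log10 ratio of the software's processed signals; the table the authors deposited beside them holds log2 ratios that the methods describe as linearly normalized. It was compared with the scanner files' ratios (lowest r per array 0.9999), which gave BMP4 over vehicle on every array and a median of 0. From the mean and local background intensity, limma 3.58.1 in R 4.3.3 made log2 ratios by normexp (offset 50) and loess, with control spots at weight 0, outlier spots left out and the spots of a probe averaged. Vehicle levels were Cy3 values after loess and Aquantile. The small number of arrays limits precision, and p-values measure the spread between arrays, each from 1 pool, which may in part be technical.

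All tests were limma fits over all probes and 30 arrays with Benjamini-Hochberg adjustment (threshold 0.05): time-point means against 0, change over time and late change with line as a block, line differences with time point as a covariate, and vehicle levels between lines. The replicate number is the cell line, which pairs the arrays: deviations from the time-point means had a mean r of 0.232 over 75 pairs of the same line and −0.0593 over 300 pairs of different lines. All member probes were reported, with the probe of highest mean intensity leading a gene; of each bone list, genes with a called change or the 2 largest late changes of brighter probes were named. Members and lists were chosen with earlier results of these data known. Alternatives covered the software's and the deposited ratios, 1 factor per array, array weights, a filter on dim probes, scan day, the line as a block or not, and leaving out each line; slide as a random block was added after seeing the data. The fits were tested on simulated data.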

Additional observations from a re-analysis of the deposited data

Results flagged for a closer look

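Within groups of 5 or 6 arrays, single values stood apart from the rest by Dixon's test in 13 of 84 groups of ratios and 9 of 70 groups of vehicle levels; chance gives about 1 in 20. Each is given as a value. For RUNX1 probe A_24_P96403 HCC1419 was the lowest line at 3 h (−0.24), 6 h (−0.26) and 24 h (−0.17). For the second RUNX1 probe ZR-75-30 stood high at 3 h (0.98) and SK-BR-3 low at 12 h (−1.86). Among the RUNX2 probes, A_24_P69267 had a ratio of 0.28 and a vehicle level of 6.81 in SK-BR-3 at 30 min, and A_32_P148058 had −2.80 and 13.08 in HCC1419 at 24 h. RUNX3 stood high in MDA-MB-361 at 30 min (0.30), and its vehicle level was low in HCC1954 at 1 h (8.81).

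Among the bone genes, SPP1 had a ratio of 0.28 in HCC1954 at 6 h, and vehicle levels of 8.17 in HCC1954 at 1 h and 6.35 in ZR-75-30 at 3 h. IBSP had ratios of −0.20 in SK-BR-3 at 1 h and 0.15 in HCC1954 at 6 h, and vehicle levels of 7.41 in HCC1954 at 24 h, 8.14 in SK-BR-3 at 6 h and 6.77 in ZR-75-30 at 12 h. BGLAP probe A_23_P160638 had a ratio of −0.78 in ZR-75-30 at 12 h and a vehicle level of 7.87 in MDA-MB-361 at 1 h, and probe A_24_P336551 a ratio of 0.25 in HCC1954 at 24 h.

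With the reported processing the BMP4 ratio differed between the 5 lines for RUNX1 probe A_24_P96403 (limma F test, adjusted p = 0.0276). It also did for RUNX2 probe A_32_P161762 (adjusted p = 0.0152). Both calls were lost with the software's ratios, with the deposited ratios and with 1 factor per array. Of all probes 19.1, 15.6 and 0.0122% were called with these.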

How the results depend on the processing

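Over the alternatives run, 71 of 88 counts of called member probes stayed within 1.5 times the reported count. Change over time, late change and its difference between lines gave 0 in each. Of all probes at most 0.188, 0.165 and 0.0805% were called for these. Vehicle levels gave 6 to 11 calls beside the reported 9, and 55.1 to 91.8% of all probes beside 73%. The RUNX1 (A_24_P96403), RUNX2 (A_32_P161762), RUNX3 and both BGLAP probes were called for vehicle level in every setting run. Against 0, 1 member call arose with the software's ratios (BGLAP) and 1 with array weights (RUNX2). Of all probes 0.139 to 2.69% were called per time point with the software's ratios, and 0.3 to 3.36% with array weights. The 2 ratio differences between lines became 1 with the software's ratios, 0 with the deposited ratios, 0 with 1 factor per array, 4 with array weights, and 0 to 3 when a line was left out. Of all probes 22.2% were called as reported. In the same order of alternatives the share was 19.1, 15.6, 0.0122 and 36.3%, and 0.234 to 24.7% when a line was left out. The 3 calls of a line against the others became 0 with 1 factor, 5 with array weights, and 1 to 4 when a line was left out. Of all probes the share called in MDA-MB-361 went from 22.3% to 4.45% with 1 factor and 29.5% with array weights. In ZR-75-30 it went from 9.87% to 0% and 8.57%. When a line was left out it was 16.7 to 26.6% in MDA-MB-361 and 4.46 to 8.96% in ZR-75-30. The 2 values of 2-fold or more became 15 with the deposited ratios, 17 with the software's, and 9 at 1.5-fold. With line as a fixed replicate block the test against 0 gave 0 calls, and change over time and late change without the replicate block, or late change with a random one, gave 0; the block changed no call. Slide as a random block was chosen after seeing the data.

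Of 105 alternative late changes of the 7 brighter probes, none of them called, 14 changed sign. BGLAP probe A_24_P336551 became −0.13 with the software's and −0.12 with the deposited ratios, and −0.0286 to 0.0729 when a line was left out (−0.0201 without MDA-MB-361). RUNX1 probe A_24_P96403 became 0.0803 with 1 factor. The second RUNX1 probe became 0.0292 with array weights, 0.20 with scan day as a block, 0.0521 for 24 h minus 30 min, and −0.15 to 0.10 when a line was left out (0.0025 without HCC1954). Leaving out a line gave −0.10 to 0.0214 for RUNX2, −0.0725 to 0.0230 for RUNX3 and −0.15 to 0.0032 for BGLAP probe A_23_P160638. The cause was not tested. Depth here is signal over background: SP7, IBSP, SPP1, SPARC and the dimmer RUNX2 and ALPL probes were too close to background for a change to be bounded.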
